A study of Mus musculus with 6 samples.

Results

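The Mir322 to Mir450 cluster is a run of miRNA hairpins on the mouse X chromosome, and its mature products were followed here in macrophages with and without Dicer. Its members were chosen by name, as the assays called miR-322, miR-503, miR-351, miR-542-3p, miR-542-5p and miR-450a-5p, and this gave 7 of 596 miRNA assays. The 6 names account for 7 assays because miR-322 was measured in each of the 2 pools of assays, while the other names each occurred in pool A alone. Bone marrow of male mice aged 6 to 8 weeks was turned into macrophages by 7 days of culture with L929-conditioned medium, a source of macrophage growth factor, and miRNAs were measured by TaqMan RT-PCR. In the Dicer KO group (n = 3) the genotype was LysM-Cre/Dicerflox/flox/Apoe–/–, so that Cre made in myeloid cells recombines both floxed Dicer alleles. In the Dicer WT group (n = 3) the genotype was LysM-Cre/Dicerwt/wt/Apoe–/–, so both groups carried the LysM-Cre driver and lacked Apoe. No Dicer assay was analysed here, so how far the gene was deleted in these cultures is unknown from the data.

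Dicer cuts the hairpin precursor of a miRNA into a short duplex, of which mostly 1 strand, the guide, is kept and the other, the passenger strand, written with an asterisk, is mostly discarded. A miRNA finds its messenger RNA targets mainly through its seed, bases 2 to 8 counted from the 5′ end, so miRNAs with the same seed share many targets. miR-322, the mouse counterpart of human miR-424, and miR-503 belong to the extended miR-15/16 family, whose members repress regulators of the cell cycle. In human cells miR-424 takes part in the differentiation of monocytes to macrophages, and miR-542-3p has been reported to repress survivin, an inhibitor of cell death.

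The mature sequences show which members can be expected to share targets by seed and which stand alone. All 6 names matched an entry in RefSeq (build GRCm38.p6), and all lie on the minus strand of chromosome X. They are written 5′ to 3′ in the order in which the hairpins follow each other along that strand, with the seed in capitals:
miR-322: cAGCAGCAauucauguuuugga
miR-503: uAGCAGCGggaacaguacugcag
miR-351: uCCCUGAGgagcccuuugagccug
miR-542-5p: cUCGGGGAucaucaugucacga
miR-542-3p: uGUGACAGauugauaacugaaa
miR-450a-5p: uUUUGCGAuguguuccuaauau

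Of these sequences miR-322 lies at chrX:53054306-53054327, miR-503 at chrX:53054027-53054049 and miR-351 at chrX:53053315-53053338. The miR-542 arms lie at chrX:53049453-53049474 (5p) and chrX:53049415-53049436 (3p), and miR-450a-5p is encoded by both Mir450-2, at chrX:53048339-53048360, and Mir450-1, at chrX:53048206-53048227. The mature products of all 7 hairpins, Mir450b being the last, span 6320 bases. In the RefSeq annotation of that build the hairpins Mir322, Mir503 and Mir351 lie within C430049B03Rik, a long noncoding RNA gene, and the other 4 hairpins lie within no annotated gene. The first mature product of those 4, miR-542-5p, lies 3801 bases beyond the last of Mir351. Whether all 7 hairpins are cut from 1 primary transcript in these cells was not tested.

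The seeds fall into groups. The seed of miR-322 occurs in 9 other mature miRNAs, among them miR-15a, miR-15b, miR-16, miR-195 and miR-497 (the last pair as miR-195a-5p and miR-497a-5p in RefSeq), and miR-503 shares bases 2 to 7 with them but not base 8 (A8G from miR-322 to miR-503, counted from the 5′ end). The seed of miR-351 occurs in 4 others, among them miR-125a-5p and miR-125b-5p. Those of miR-542-3p and miR-450a-5p were shared with 0 other entries of the 1679 mature miRNAs in the table, and that of miR-542-5p with 1, miR-6966-5p. A relative of each family is shown for the likeness in the seed and the difference beyond it, both encoded on other chromosomes:
miR-16: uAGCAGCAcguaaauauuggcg
miR-125b-5p: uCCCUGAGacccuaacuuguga

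The measurement is the threshold cycle (Ct), which falls by about 1 for each doubling of template and is listed as 40 where a well gave no amplification. Levels are given as log2 abundance relative to the mean Ct of the 5 endogenous small RNA controls of the same pool and sample, which are not made by Dicer. Ct values of 35 or more were set to that ceiling, so a level there is only an upper bound. A limit on every value is KO replicate 1, whose mean control Ct was 22.8 in pool A, against 20.3 and 19.3 in KO replicates 2 and 3 and 19.1 to 21.1 in the WT samples. KO replicate 1 had 219 miRNA assays below the ceiling, against 277 and 290 in the other KO samples and 307 to 309 in the WT samples. It also had 13 of 207 assays (6.28%) at Ct 40 where the other 2 KO samples lay below Ct 30, whereas the other 5 samples each had 0 or 1 such assay. Of the member assays 4 were at Ct 40 in KO replicate 1 and 0 in any other sample, so results are given with and without it. Labels name the samples as biological replicates, and the control Ct did not separate the groups (20.8 ± 1.82 in KO and 20.2 ± 1.02 in WT in pool A, SD, n = 3 each; two-sided exact permutation p = 0.8; 0.7 in pool B). With 3 samples against 3 that test cannot give less than 0.1.

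Of the 7 assays of the cluster 3 were lower in Dicer KO macrophages by the test, and all 7 differences were negative in sign, beside 87.6% of all 282 tested assays. miR-503 was 6.10-fold lower and miR-450a-5p 4.60-fold lower. miR-351 was 10.7-fold lower over the samples other than KO replicate 1, where its well did not amplify, and at least 18.7-fold lower if that well is taken as a level below the ceiling. These 3 passed (limma across all tested assays, Benjamini-Hochberg adjusted p under 0.05). miR-322 was 3.76-fold lower in pool A and missed the threshold, and both arms of miR-542, close to the detection limit, did not pass. Of all tested assays 37.2% were lower in KO by this test and 0.355% higher, so 3 of 7 member assays lower and 0 higher is near the background. Shares and medians over all tested assays take both pools together throughout, and none was taken by pool. The groups did not overlap, with KO lower, in 6 of the 7, beside 59.9% of all tested assays, which is read no further because 4 of the 7 (miR-322 in pool B, miR-351 and both arms of miR-542) entered the test through the WT samples alone. With the replicate number as a block, 1 member assay, miR-351, passed, while 41.8% of all tested assays were then lower in KO. Without KO replicate 2, or without any 1 WT sample, 0 of the 7 passed and 2 or 3 of all tested assays were lower. In bulk RNA, less of a miRNA per cell and fewer cells that make it cannot be told apart.

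**Figure D1:**
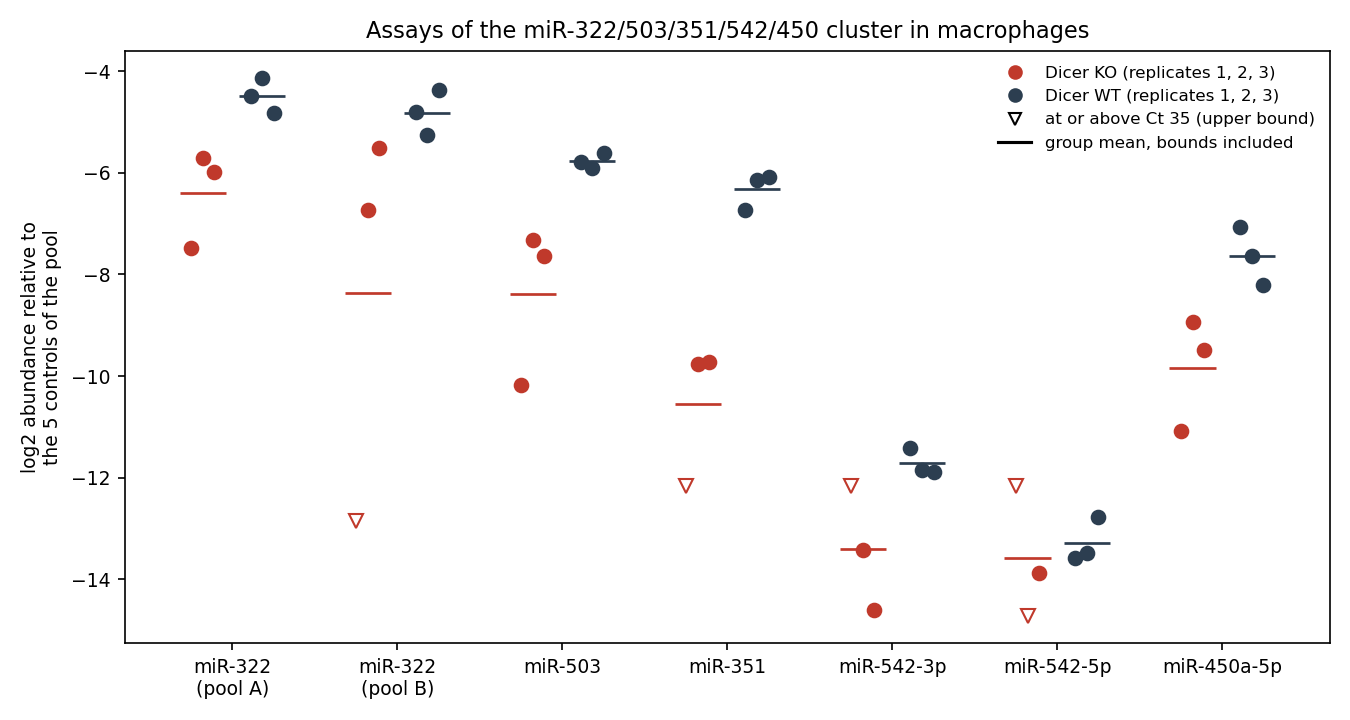
The plot gives the log2 abundance, relative to the 5 controls of the pool, of each member assay in the 3 Dicer KO samples (red, left of each pair) and the 3 Dicer WT samples (dark, right); bars are group means and open triangles are wells at or above Ct 35, which are upper bounds. The KO points lie below the WT points for each assay but miR-542-5p, and the 4 member assays without amplification in KO replicate 1 appear as triangles at -12.16 (pool A) and -12.86 (pool B).

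The guide strand of the hairpin at the head of the cluster, miR-322, was the member with the highest signal. In pool A its Ct was 30.3, 26.0 and 25.3 in KO replicates 1, 2 and 3, against 25.5, 24.7 and 23.9 in WT replicates 1, 2 and 3. Relative to the controls this is -7.49, -5.71 and -5.98 in KO and -4.48, -4.13 and -4.83 in WT. The groups did not overlap, and KO replicate 1 was the lowest sample. The difference was -1.91 ± 0.64 on the log2 scale (SE; 95% interval -3.43 to -0.39; limma adjusted p = 0.0524), close to the median of -1.91 over all tested assays. Leaving out KO replicate 1 gave 2.57-fold lower with an adjusted p of 0.0524.

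The assay of miR-322 in pool B gave nearly the same Ct as that in pool A in 5 samples, and a different one in KO replicate 1. Its Ct was 40, 26.0 and 24.8 in KO replicates 1, 2 and 3, against 25.9, 24.6 and 23.4 in WT replicates 1, 2 and 3. In KO replicate 1 the pool A assay of the same miRNA amplified at 30.3, which is 9.67 cycles earlier than the value listed in pool B, whereas in each of the other 5 samples the Ct values of both assays lay within 0.556 cycles of each other. Relative to the controls of each pool they lay further apart. Pool A minus pool B was 1.03 and -0.47 in KO replicates 2 and 3, and 0.32, 1.13 and -0.46 in WT replicates 1, 2 and 3. WT replicate 2 was the highest WT sample in pool A (-4.13) and the lowest in pool B (-5.26). In KO replicate 1 the bound in pool B, -12.86, lies 5.37 below the level measured in pool A. With that well set to the ceiling the pool B difference was -3.55 ± 1.80 (SE, limma adjusted p = 0.144). This cannot be read as a bound on miR-322, because pool A measured a higher level in the same sample. Without KO replicate 1 the pool B difference was -1.31 (limma adjusted p = 0.12), beside -1.36 for the pool A assay. Of 13 names measured in both pools, 16 of 78 pairs of wells were at 40 in 1 pool and below Ct 35 in the other, 2 of them in KO replicate 1. The other one in KO replicate 1 was miR-494, which was at Ct 40 in pool B and amplified in pool A in every sample. The names miR-330 and miR-449b disagreed in every WT sample, whereas miR-322 disagreed in KO replicate 1 alone. Why the wells disagree was not tested.

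**Figure D2:**
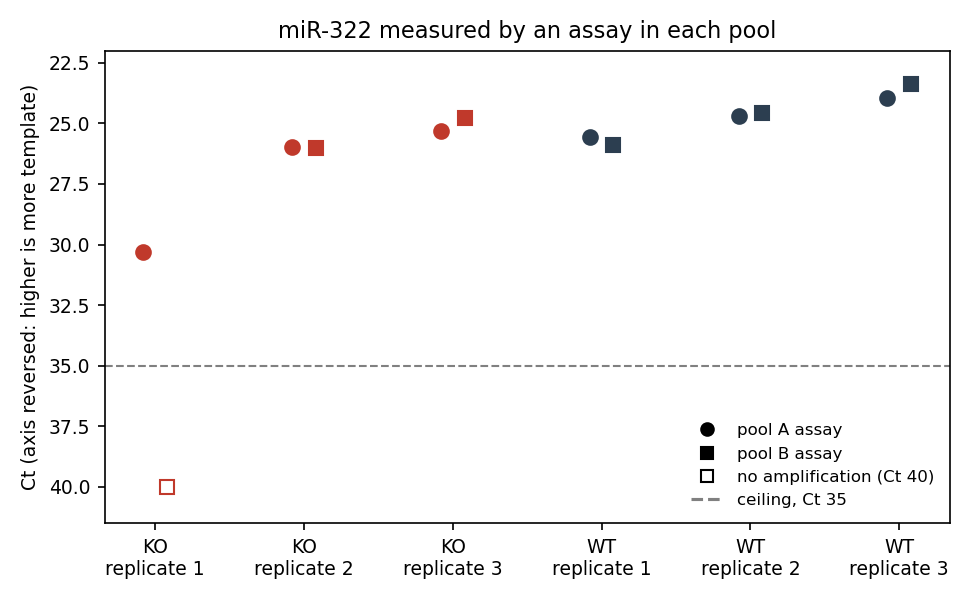
The plot gives the Ct of miR-322 in the 3 Dicer KO (red) and 3 Dicer WT (dark) samples from the pool A assay (circles) and the pool B assay (squares), on a reversed axis so that more template is higher; the dashed line is the ceiling at Ct 35. Both assays nearly coincide in 5 samples, and in KO replicate 1 the pool A assay stands at 30.3 while the pool B assay has no amplification.

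miR-503, which restrains the cell cycle together with miR-322, fell. Its levels were -10.18, -7.32 and -7.63 in KO replicates 1, 2 and 3, against -5.78, -5.90 and -5.62 in WT replicates 1, 2 and 3. The WT samples lay within 0.28 of each other, and each KO sample was lower than all of them. The difference was -2.61 ± 0.83 (SE; 95% interval -4.57 to -0.64; adjusted p = 0.0471, or 0.0535 when blocked by replicate number). It was 3.27-fold lower without KO replicate 1 (adjusted p = 0.0335), so leaving out that sample lowered the size and kept the call, while the call was lost without KO replicate 2 or any 1 WT sample (adjusted p up to 0.123).

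miR-351 carries the miR-125 seed and had the lowest estimated difference of the 7 assays. Its Ct was 40, 30.03 and 29.1 in KO replicates 1, 2 and 3, against 27.8, 26.7 and 25.2 in WT replicates 1, 2 and 3. The levels were at most -12.16 in KO replicate 1 and -9.75 and -9.72 in KO replicates 2 and 3, against -6.74, -6.13 and -6.08 in WT. The measured KO samples lay at least 2.98 below the lowest WT sample. With the well at Ct 40 set to the ceiling, the difference was -4.23 ± 0.78 (SE, 95% interval -6.08 to -2.37). Its limma adjusted p was 0.0311, or 0.042 when blocked by replicate number, at rank 13 of 282 from the lowest. It is a bound, -4.23 or lower, only if that well holds a level below the ceiling. The assay entered the test through the WT samples alone. Without KO replicate 1, where it was not detected, the fall was 10.7-fold (adjusted p = 0.0142), and the 2 measured KO samples were 10.8-fold and 10.6-fold below the WT mean. The call was lost without KO replicate 2 or any 1 WT sample (adjusted p up to 0.109).

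miR-450a-5p, the product shared by the Mir450-1 and Mir450-2 hairpins, fell as well. It was at -11.09, -8.94 and -9.48 in KO replicates 1, 2 and 3, against -7.07, -7.64 and -8.20 in WT replicates 1, 2 and 3. No KO sample reached the WT range, though KO replicate 2 and WT replicate 3 lay 0.74 apart. The difference was -2.20 ± 0.71 (SE; 95% interval -3.90 to -0.51; adjusted p = 0.0487, or 0.0749 when blocked by replicate number), and the call was lost whichever sample was left out (adjusted p = 0.0577 to 0.14; 0.0618 and 2.98-fold without KO replicate 1).

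The arms of miR-542 were near the detection limit, where the ceiling decides what can be said. miR-542-3p had Ct values of 40, 33.7 and 33.9 in KO replicates 1, 2 and 3, against 32.5, 32.4 and 30.99 in WT replicates 1, 2 and 3. Its levels in the 2 KO samples that amplified were -13.42 and -14.61, below the 3 WT samples at -11.43, -11.84 and -11.89. In KO replicate 1 the bound of -12.16 lies above both measured KO values, because the controls came late there, so that sample says little about this arm. The difference was -1.68 ± 0.71 or lower (SE; 95% interval -3.38 to 0.01; adjusted p = 0.0947), and without KO replicate 1 it was 4.92-fold lower and passed the test (-2.30; adjusted p = 0.0341). The estimate follows the ceiling: it was -0.47 with the ceiling at 33 (adjusted p = 0.715), -0.44 with the floor set after scaling (adjusted p = 0.421) and -3.35 with the ceiling at 40 (adjusted p = 0.0525).

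miR-542-5p had the weakest signal of the 7 assays. Its Ct was 40, 35.6 and 33.2 in KO replicates 1, 2 and 3, against 34.7, 34.0 and 31.9 in WT replicates 1, 2 and 3, so 1 KO sample lay below the ceiling. That sample, KO replicate 3, was at -13.88, against -13.59, -13.48 and -12.78 in WT. The difference of -0.31 or lower (95% interval -2.11 to 1.49; adjusted p = 0.771) is not informative, since the bound in KO replicate 1 is above each WT value. Without that sample it was -1.02 or lower (adjusted p = 0.152), and a change of this arm was not detectable at this signal.

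Within the cluster the signals formed a distinct order in WT, and one in KO that overlapped where KO replicate 1 was included. In KO the mean level ran from miR-322 (-6.39, pool A) through miR-503 (-8.38), miR-450a-5p (-9.84), miR-351 (-10.55 or lower) and miR-542-3p (-13.40 or lower) to miR-542-5p (-13.59 or lower), and the sample ranges of all neighbours overlapped. Apart from that between the arms of miR-542, these overlaps came with KO replicate 1. KO replicates 2 and 3 were at -5.71 and -5.98 (miR-322, pool A), -7.32 and -7.63 (miR-503) and -8.94 and -9.48 (miR-450a-5p). They were at -9.75 and -9.72 for miR-351 and -13.42 and -14.61 for miR-542-3p, so these neighbours did not overlap there. In WT it ran from miR-322 (-4.48) through miR-503 (-5.77), miR-351 (-6.32), miR-450a-5p (-7.64) and miR-542-3p (-11.72) to miR-542-5p (-13.28), with no overlap between neighbours. Assays can differ in efficiency, so this is an order of signals and not of molecules.

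miR-351 and miR-450a-5p stood in opposite order in the groups. miR-351 minus miR-450a-5p was at most -1.07, -0.82 and -0.24 in KO replicates 1, 2 and 3, against 0.33, 1.504 and 2.12 in WT replicates 1, 2 and 3. Such a within-sample difference does not depend on the controls, and here the groups did not overlap. Likewise miR-503 minus miR-351 was 1.99 or higher, 2.43 and 2.09 in KO and 0.96, 0.24 and 0.47 in WT, and pool A miR-322 minus miR-351 was 4.67 or higher, 4.05 and 3.75 in KO and 2.26, 2.01 and 1.25 in WT. Each of these 3 had p = 0.1 in the two-sided exact permutation test over samples, the smallest possible, and 0.42 adjusted over the 21 pairs of member assays. Of the 21 pairs 4 did not overlap between groups, and the fourth, miR-351 with miR-542-5p, rests on 3 wells at the ceiling. All 4 share miR-351, which entered the test through the WT samples alone and did not amplify in KO replicate 1. The share among pairs of all tested assays was not taken, so this count is read no further. Among the 3 pairs formed by miR-322 in pool A, miR-503 and miR-450a-5p, all measured in every sample, the change differed by 0.70 or less in size and the groups overlapped (exact permutation p = 0.3 to 0.6), which does not show that they changed alike. That test does not use the pairing by replicate number. By that pairing, miR-503 minus miR-450a-5p was lower in KO in 3 of 3 same-numbered pairs. Its values were 0.91, 1.61 and 1.86 in KO replicates 1, 2 and 3, against 1.28, 1.74 and 2.58 in WT replicates 1, 2 and 3. Pool A miR-322 minus miR-503, and pool A miR-322 minus miR-450a-5p, were each lower in KO in 1 same-numbered pair and higher in 2. Agreement in direction over 3 pairs was not tested and is read no further.

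**Figure D3:**
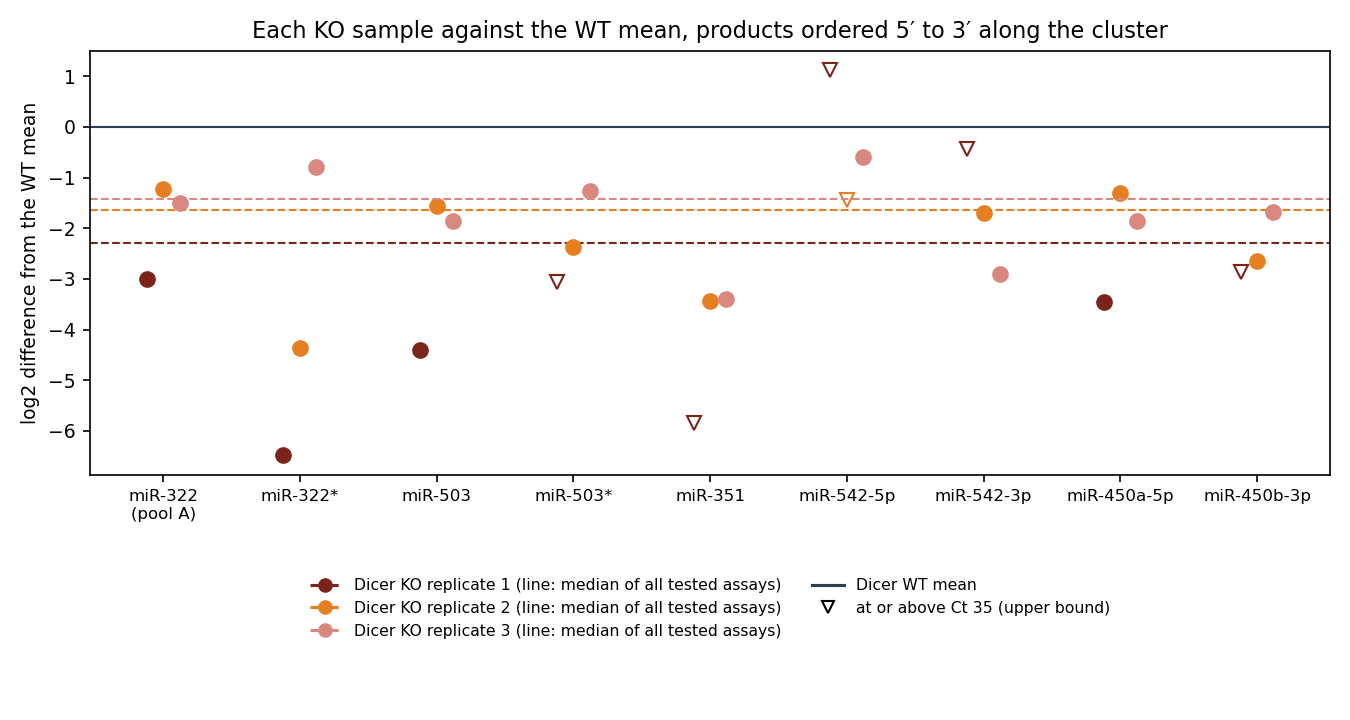
The plot gives, for each product in its 5′ to 3′ order along the cluster, the log2 difference of each Dicer KO sample from the Dicer WT mean. Open triangles are upper bounds, and dashed lines are the medians over all tested assays of both pools in the same sample. The 2 measured KO samples of miR-351, at -3.43 and -3.40, lie below the medians of -1.65 and -1.42, while those of miR-322 in pool A, at -1.23 and -1.496, lie close to them.

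Of the pool A members below the ceiling in KO replicates 2 and 3, miR-351 stood lowest below the WT mean in both. In KO replicates 2 and 3 the difference from the WT mean was -1.23 and -1.496 for miR-322 (pool A), -1.56 and -1.86 for miR-503, -3.43 and -3.40 for miR-351, -1.71 and -2.89 for miR-542-3p and -1.30 and -1.85 for miR-450a-5p. For miR-542-5p it was -1.45 or lower in KO replicate 2, a well at the ceiling that cannot be ranked, and -0.60 in KO replicate 3. In KO replicate 1 the 3 members that amplified in pool A, miR-322, miR-503 and miR-450a-5p, were 8.05-fold, 21.2-fold and 10.9-fold below the WT mean, beside a median of 4.90-fold over all tested assays in that sample. That median takes both pools together and includes wells set to the ceiling. In that sample 52 of the 282 tested assays were at Ct 40, whereas these 3 members amplified, so the gap is read no further.

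Other strands of the same hairpins were measured in pool B, and the hairpins show how closely both arms are packed. In the Mir322 hairpin (chrX:53054255-53054349, minus strand, GRCm38.p6), the Mir503 hairpin (chrX:53053984-53054054) and the Mir542 hairpin (chrX:53049403-53049487), shown because both arms of each were assayed, the 5p arm and then the 3p arm are in capitals:
Mir322: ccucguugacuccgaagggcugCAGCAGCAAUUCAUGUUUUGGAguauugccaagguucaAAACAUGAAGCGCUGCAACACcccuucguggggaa
Mir503: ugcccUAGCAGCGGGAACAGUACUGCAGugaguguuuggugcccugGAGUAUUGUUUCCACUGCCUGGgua
Mir542: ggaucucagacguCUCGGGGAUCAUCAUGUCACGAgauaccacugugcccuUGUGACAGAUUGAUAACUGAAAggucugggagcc

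The passenger strand of Mir322, miR-322*, varied widely among KO samples (SD 2.88, against 0.63 in WT, n = 3 each). Its level was -12.00, -9.87 and -6.30 in KO replicates 1, 2 and 3, against -5.54, -6.14 and -4.87 in WT replicates 1, 2 and 3, so KO replicate 3 lay 0.16 below the lowest WT sample and the other 2 far below. The difference was -3.87 ± 1.38 (SE; adjusted p = 0.0583), or -5.42 without KO replicate 3 (adjusted p = 0.0206) and -2.57 without KO replicate 1 (adjusted p = 0.142). miR-322* minus its guide in the same pool was -3.14 and -0.80 in KO replicates 2 and 3, against -0.74, -0.88 and -0.50 in WT, so KO replicate 2 stood apart. In KO replicate 1 the passenger amplified, at Ct 34.1, while the pool B assay of the guide did not.

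miR-503*, the passenger of miR-503, passed the test by a narrow margin, having entered it through the WT samples alone. It was at -12.86 or lower, -12.18 and -11.08 in KO replicates 1, 2 and 3, against -9.05, -10.65 and -9.71 in WT replicates 1, 2 and 3. The groups did not overlap, and the difference was -2.24 ± 0.70 or lower (SE; adjusted p = 0.0462, or 0.0571 when blocked by replicate number, 0.0876 without KO replicate 1 and 0.0794 with the ceiling at 33). Its guide differed by -2.61, and passenger minus guide, across pools, was at most -2.68, -4.86 and -3.45 in KO replicates 1, 2 and 3, against -3.265, -4.75 and -4.09 in WT replicates 1, 2 and 3. In the Mir542 hairpin the 5p arm minus the 3p arm was 0.73 in KO replicate 3, the only KO sample with both arms below the ceiling, against -2.16, -1.64 and -0.90 in WT.

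The end of the cluster had 1 more product above detection. miR-450b-3p was at -12.86 or lower, -12.66 and -11.68 in KO replicates 1, 2 and 3, against -9.51, -10.50 and -9.99 in WT replicates 1, 2 and 3. Its fall was -2.40 ± 0.57 or lower (SE; adjusted p = 0.0312, or 0.042 when blocked by replicate number and 0.0381 without KO replicate 1), with no overlap. The call was lost with the ceiling at 33 (-1.73; adjusted p = 0.0574) or 40 (-4.07; adjusted p = 0.094). miR-450b-5p and miR-450a-3p were at Ct 40 in all 6 samples and had no level. The authors' deposited tables of ratios and folds attach the name miR-450a-3p to the values that the Ct table lists as miR-450b-3p, and the reverse, so which of both 3p arms was measured is not settled by the files. Of the 5 assays present from this list of other products, 3 were tested, miR-503* and miR-450b-3p through the WT samples alone, and 2 were lower in KO, beside 37.2% of all tested assays, or 0 without KO replicate 2 or any 1 WT sample.

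For the members, the authors' deposited ratios matched the Ct values of the same name within 0.02 on the log2 scale in 7 of 7 rows, whereas 33 of all 596 rows did not. The authors' deposited table of folds gives KO over WT as 0.0627 for miR-351, 0.226 for miR-503, 0.252 for miR-450a-5p, 0.307 and 0.287 for miR-322 in pools A and B, 0.157 for miR-542-3p and 0.317 for miR-542-5p. For the members these ratios match Ct values scaled to U6, snoRNA135 and snoRNA202, with no ceiling and Ct 40 taken as a number. Each fold is a ratio of group means of the ratios and not of log2 levels, so it is not on the scale of the folds above. In that table miR-450b-5p, at Ct 40 in all samples, has a fold of 2.39, because wells without amplification entered as numbers and the ratio then follows the control Ct alone.

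miRNAs that share a seed with a member are encoded elsewhere in the genome. Of the 5 miR-15/16 seed relatives, all measured in every sample, miR-15b and miR-497 fell and 3 did not pass, a share near the 37.2% of all tested assays (median -1.37, beside -1.91 over all tested assays), and 0 passed without KO replicate 2 or any 1 WT sample. miR-497 was at -10.61, -8.33 and -9.67 in KO replicates 1, 2 and 3, against -6.38, -6.62 and -6.67 in WT replicates 1, 2 and 3, and was 7.90-fold lower (-2.98 ± 0.68, SE; adjusted p = 0.0312). miR-15b was 2.89-fold lower (-1.53 ± 0.48; adjusted p = 0.047, 0.0869 without KO replicate 3). miR-16 had the strongest signal of the family, at -0.12, 1.09 and 1.77 in KO and 1.65, 2.53 and 2.67 in WT, and these ranges overlapped (adjusted p = 0.132). The log2 difference was -1.26 for miR-15a (adjusted p = 0.0833) and -1.26 for miR-195 (adjusted p = 0.103).

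Neither of the miR-125 seed relatives of miR-351 passed the test. miR-125b-5p was at -2.83, -2.87 and -3.25 in KO replicates 1, 2 and 3, against -0.91, -1.85 and -2.53 in WT replicates 1, 2 and 3, with no overlap but no call (-1.22 ± 0.59, SE; adjusted p = 0.128). miR-125a-5p was at -9.23, -4.25 and -3.99 in KO, against -4.13, -1.69 and -2.88 in WT, and the groups overlapped (-2.92 ± 1.48; adjusted p = 0.143, or -1.22 without KO replicate 1). Whether either differs from miR-351 in its change was not tested.

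**Figure D4:**
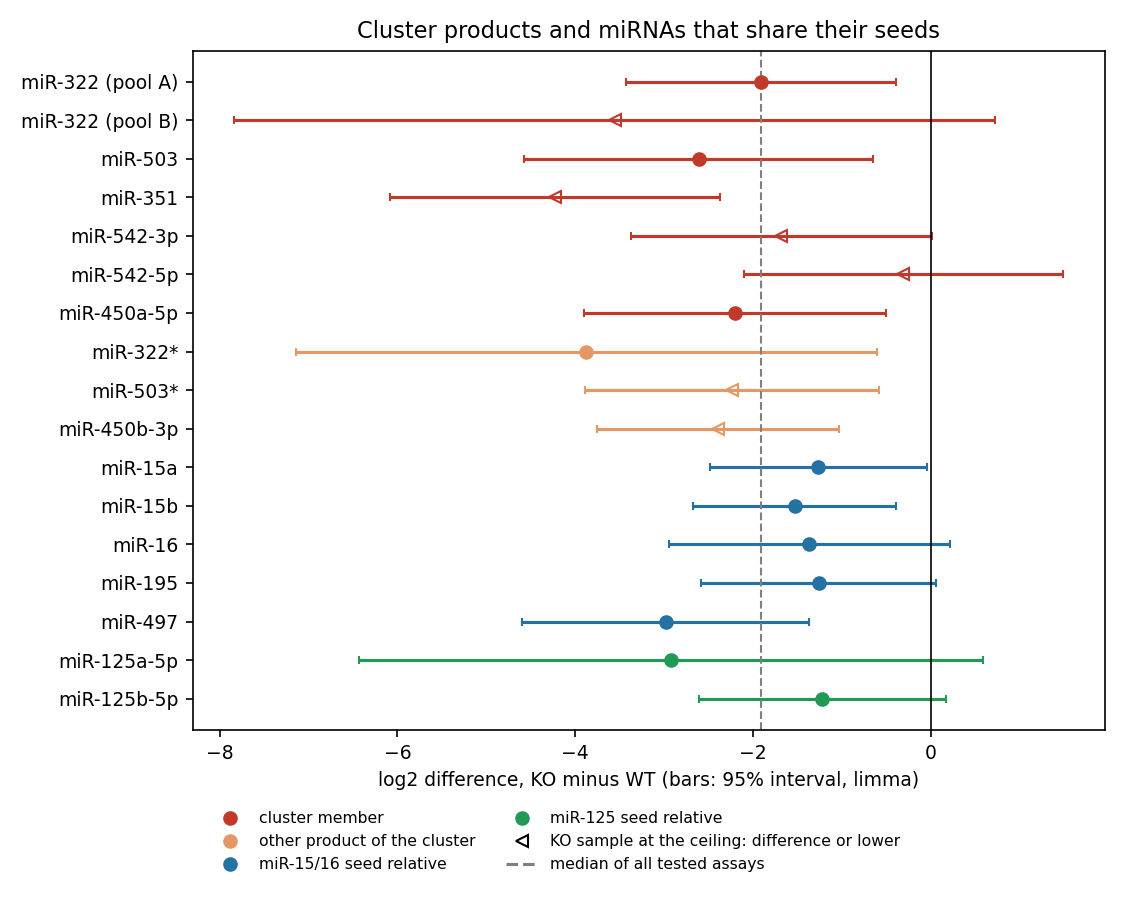
The plot gives the log2 difference, Dicer KO minus Dicer WT, with its 95% interval (limma) for the 7 member assays (red), the 3 tested other products of the cluster (orange), and the miR-15/16 (blue) and miR-125 (green) seed relatives; open markers are differences that may be lower still because a KO sample was at the ceiling. All points lie left of 0. Each interval but that of miR-351, from -6.08 to -2.37, includes the dashed median of all tested assays at -1.91. That median takes both pools together, whereas the orange points and the second miR-322 point are pool B assays. The miR-351 interval takes a KO well without amplification at the ceiling, and the assay entered the test through the WT samples alone. Whether miR-351 fell by more than that median was not tested, so its interval is read no further.

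The assays most like the cluster were found from the mean profile of its 3 members measured in all samples (miR-322 in pool A, miR-503 and miR-450a-5p), set to the WT mean, which was -3.62, -1.36 and -1.74 in KO replicates 1, 2 and 3. By root mean square distance over the 6 samples, the nearest of 275 other tested assays were miR-28 (0.183), let-7g (0.202), miR-29a (0.23), miR-30d (0.259) and miR-872 (0.284), beside a median distance of 1.01. In KO replicates 1, 2 and 3 miR-28 stood at -3.66, -1.64 and -1.61. All 6 profiles share the samples and the control Ct values, which also shape their likeness.

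Markers of cell types were examined as sums of their levels. The 7 miRNAs of the myeloid list were all below the ceiling in every sample, at 3.00 to 3.86 in KO and 4.88 to 5.74 in WT (log2 of the sum), and 4 of 7 were lower in KO. miR-223 had the highest level of the 7 in every sample, at 2.40 to 3.38 in KO and 4.06 to 5.27 in WT. Whether the list is particular to macrophages was not tested. All counts of lower markers stand beside 37.2% of all tested assays. The stromal sum (6 assays, 4 of them below the ceiling in all samples, 5 tested and 0 called) was -4.35 to -3.34 in KO and -7.61 to -0.70 in WT, with WT replicate 3 the lowest. In that sample the 7 member assays lay between -0.56 (miR-450a-5p) and 0.50 (miR-542-5p) from the WT mean. The endothelial sum (2 assays, 0 called) was at most -10.56 in KO replicate 1, where miR-126-3p was at the ceiling, and up to -7.24 in KO, against -7.06 to -6.23 in WT. The lymphocyte sum (2 assays, 1 lower) was -5.12 to -4.01 in KO and -3.02 to -2.38 in WT. The erythroid assay and the 3 muscle assays were not tested, with 2 of the muscle assays at Ct 40 in all samples. These markers are themselves Dicer products, and their part in the results for the cluster was not tested.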

How the data were processed

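The labels' protocols name the mirVana kit for total RNA, TaqMan reverse transcription and TaqMan preamplification; no source used here gives the instrument or software. A Ct score was deposited by the authors for 608 assays in 6 samples, and, per the file headers, relative quantities and their fold, KO over WT (each a ratio), for 596. Both blocks of rows (pools A and B) hold 5 endogenous controls each. Ct was set to at most 35, turned into log2 abundance relative to the pool's controls, and tested with limma 3.58.1 in R 4.3.3 (lmFit, eBayes, two-sided, Benjamini-Hochberg over all tested assays) where all 3 samples of a group lay below the ceiling. Single values were compared by exact permutation in Python 3.11.15 with scipy 1.17.1. The fit was checked on simulated data with noise of equal spread in both groups and no well at the ceiling. That check does not cover wells at the ceiling or a spread that differs between groups. Alternatives were other references, ceilings and filters, a replicate block and leaving out each sample. Same-numbered samples deviated together (r = 0.23, 0.28 and 0.27 across 282 assays), so the fit with the replicate block treats them as pairs, from the data alone. The main fit uses genotype alone and does not pair the samples. These r values include wells at the ceiling, whose level follows the control Ct. Named were the members, the lists and the 5 nearest profiles. Members, lists and tests were chosen with earlier results of these data known. The number of samples limits the precision.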

Additional observations from a re-analysis of the deposited data

How the results depend on the processing

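The calls were less firm than the direction of the differences. The difference of miR-351, miR-503, miR-450a-5p and of both miR-322 assays was negative under every alternative run (nearest to 0 at -0.024 for miR-322 in pool A with the global mean as reference), while the arms of miR-542 turned to 0.21 (3p) and 1.58 (5p) with the global mean of miRNAs as reference, which removes a shift common to all miRNAs. With that reference miR-351 was at -2.34, miR-503 at -0.72 and miR-450a-5p at -0.31, the seed relatives miR-15a, miR-15b, miR-16, miR-195 and miR-125b-5p turned to 0.62, 0.36, 0.52, 0.62 and 0.67, 0 members of any list passed and 2 of all assays were lower (limma). With the ceiling at 40 miR-351 (-5.89), miR-503 (-2.61) and miR-450a-5p (-2.20) did not pass (adjusted p = 0.072, 0.0622 and 0.0622), so that 0 members, 0 other products, 1 miR-15/16 relative and 2 myeloid miRNAs were lower. With every assay admitted that was below the ceiling in at least 1 sample, 352 assays were tested, 0 members and 0 of each list passed (miR-351 at -4.23, adjusted p = 0.0566; miR-503 at -2.61, 0.0735; miR-450a-5p at -2.20, 0.0786) and 2 of all assays were lower. miR-322 in pool A passed with U6 alone (-2.01), with U6, snoRNA135 and snoRNA202 (-1.84), and, at -1.91, with the ceiling at 33, the floor set after scaling, assays below the ceiling in all 6 samples, or wells at Ct 40 left out (an alternative chosen after seeing the data, under which miR-542-3p also passed at -2.30 and 5 member assays were lower). With assays required in all 6 samples, and with the ceiling at 33, 1 other product was lower, and with U6 alone 1 miR-15/16 relative was. The count of all assays higher in KO was 2 with U6 alone, with the ceiling at 33 and with the floor set after scaling. With the replicate block miR-503 (-2.61) and miR-450a-5p (-2.20) lost their call, leaving 1 member and 1 other product; it ended that of miR-503* (-2.24) and changed no other call named in the text. miR-503* also missed the threshold with the global mean (-1.59), with the ceiling at 33 (-1.57) or 40 (-2.39) and with assays admitted from 1 sample, as did miR-450b-3p (-1.75, -1.73, -4.07 and -2.40 in the same order).

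Leaving out 1 sample at a time, the difference ranged from -4.64 to -3.42 for miR-351, from -3.14 to -1.71 for miR-503, from -2.65 to -1.58 for miR-450a-5p, from -2.30 to -1.07 for miR-542-3p, from -2.72 to -1.83 for miR-503* and from -1.02 to 0.26 for miR-542-5p, which turned positive without KO replicate 2. Without KO replicate 2 or any 1 WT sample, 0 members passed. The counts ranged over these alternatives from 0 to 3 for the members, 0 to 3 for the other products, 0 to 2 for the miR-15/16 relatives, 0 to 5 for the myeloid list, 0 to 0 for the lymphocyte list, and 2 to 112 lower and 1 to 3 higher for all assays. The difference between the changes of 2 members turned sign only where it was small or rested on the ceiling. With the ceiling at 40 the change of miR-322 (pool A) minus that of miR-542-3p was 1.44, minus that of miR-542-5p 0.27, that of miR-503 minus miR-542-3p 0.74 and that of miR-542-3p minus miR-450a-5p -1.15; with the ceiling at 33 that of miR-322 (pool A) minus miR-450a-5p was -0.0187. With 1 sample left out at a time it ranged from -0.0539 to 2.87 for miR-322 in pool A minus pool B, from -1.04 to 0.94 for miR-322 (pool A) minus miR-542-3p, from -1.91 to 0.59 for miR-503 minus miR-542-3p and from -0.72 to 1.303 for miR-542-3p minus miR-450a-5p. For miR-322 in pool B it ranged from -2.003 to 0.40 against miR-503, from -0.35 to 2.11 against miR-351, from -3.91 to 0.99 against miR-542-3p and from -2.61 to 0.27 against miR-450a-5p. The cause of these changes was not tested. Signals later than Ct 35 carry no level here, which limits what can be said of both arms of miR-542.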
